A study of Mus musculus with 15 samples.

Results

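Dimethylation of lysine 4 of histone H3 (H3K4me2) was compared genome-wide between αTN4 cells with a control shRNA and Pax6 knockdown (KD) αTN4 cells, from 1 deposited peak list of each. All peaks of both lists were members, 66274 in the control and 65852 in the Pax6 KD, so 132126 of the 291642 regions in all peak and island lists of a study of 15 samples. αTN4 is a mouse lens epithelial line transformed by SV40 large T antigen. Control and Pax6 shRNAs were delivered by lentivirus, and puromycin-selected stable populations, not single clones, were used. The labels do not say which Pax6 construct was used for ChIP, and the study's methods name the line called sh2. Both ChIPs used antibody ab7766 of the same lot, and each condition had 1 sample with 1 peak list, so no p-value is given and 95% Wilson intervals cover counting error only. The control list may pool replicates, which the sources used here do not settle.

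H3K4 methylation is written by the Set1 and Mll complexes. The trimethyl form marks active promoters, the monomethyl form is broad over enhancers, and H3K4me2 lies at both, often flanking nucleosome-free sites where transcription factors bind. Pax6 is a paired-domain and homeodomain factor required for lens and eye formation, and it binds lens regulatory DNA including crystallin genes. Here a peak was called promoter where it touched 2 kb on either side of a protein-coding transcription start site (TSS) in mm9, and distal otherwise. A peak was called kept where it shared at least 1 bp with a peak of the other list, and control-only or KD-only where it did not.

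Lens identity was checked first. Of 9 lens epithelial markers found in the annotation, 7 had a promoter peak in both libraries (Pax6, Cryaa, Cryab, Prox1, Mab21l1, Meis1 and Six3), while Foxe3, a forkhead factor of lens epithelium, and Cdh1, encoding E-cadherin, had none. The Pax6 promoter lay in a single peak of 23886 bp in the control and 23544 bp in the KD, with a summit signal 0.24 higher in the KD on the log2 scale. An shRNA acts on the transcript, so this value does not check the knockdown. Fibroblast markers had promoter peaks at 4 of 5 genes in both libraries (Col1a1, Col1a2, Dcn and Pdgfra), endothelial markers at 2 of 4 in the control and 1 in the KD, blood markers at 0 of 4, and retinal or pigment-epithelial markers at 1 of 5 (Mitf). H3K4me2 was therefore present at promoters of most lens epithelial and most fibroblast markers in both populations.

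The libraries differed in depth. MACS2 gives each summit a fold enrichment and a Poisson p, and these were solved together for the summit's pileup of fragments and its local background. Whole fragments times 0.462 in the control, and whole fragments in the KD, gave the deposited −log10 p to within 0.002 for 100% of control and 99.9985% of KD peaks. Median summit height was 65 fragments in the control and 23 in the KD, and ChIP depth after scaling was 1.67 times as high in the control as in the KD. Before scaling the ratio was 3.61, a lower bound if the KD ChIP was the smaller library. A difference in the number or width of peaks therefore cannot be told apart from depth.

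The DNA under the leading peaks of each class is shown here because the peaks of only 1 library are what a comparison of the lists turns on. Each is the summit with 100 bases to either side in the mm9 assembly, 5′ to 3′ on the plus strand, named by the gene with the nearest TSS. Capitals mark the AP-1 word TGANTCA and the homeobox word TAATTA, on either strand. The first pair are the control-only distal peaks of highest fold enrichment, and the next pair are the KD-only distal peaks that ranked 1 and 3.
Arfip1, chr3:85684435-85684635: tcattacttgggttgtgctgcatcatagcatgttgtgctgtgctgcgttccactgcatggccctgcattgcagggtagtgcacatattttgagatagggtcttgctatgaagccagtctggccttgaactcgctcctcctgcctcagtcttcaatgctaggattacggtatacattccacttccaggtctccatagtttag
Ccdc28a, chr10:18037915-18038115: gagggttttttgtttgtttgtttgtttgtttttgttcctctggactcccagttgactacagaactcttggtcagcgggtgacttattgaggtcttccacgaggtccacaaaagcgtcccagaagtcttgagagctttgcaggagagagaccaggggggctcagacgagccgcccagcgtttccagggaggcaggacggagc
Fer1l6, chr15:58403375-58403575: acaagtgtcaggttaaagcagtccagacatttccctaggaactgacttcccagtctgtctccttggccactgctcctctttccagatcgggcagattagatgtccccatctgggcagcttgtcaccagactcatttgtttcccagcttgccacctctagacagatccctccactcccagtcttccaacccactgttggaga
Clcn4-2, chr7:7230759-7230959: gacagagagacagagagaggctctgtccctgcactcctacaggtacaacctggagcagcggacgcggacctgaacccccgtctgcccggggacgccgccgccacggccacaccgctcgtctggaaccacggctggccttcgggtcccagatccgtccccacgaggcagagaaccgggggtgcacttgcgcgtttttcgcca
None of these 4 windows held either word. The next 4 are the strongest distal windows with the AP-1 word, control-only at Cenpm and Txlnb and KD-only at Rras2 and Stc1, shown because that word was commoner in peaks of both classes than in kept peaks.
Cenpm, chr15:82077546-82077746: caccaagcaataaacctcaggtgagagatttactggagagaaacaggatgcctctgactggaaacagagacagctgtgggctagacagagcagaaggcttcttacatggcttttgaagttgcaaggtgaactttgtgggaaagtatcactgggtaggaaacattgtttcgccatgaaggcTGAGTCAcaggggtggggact
Txlnb, chr10:17496236-17496436: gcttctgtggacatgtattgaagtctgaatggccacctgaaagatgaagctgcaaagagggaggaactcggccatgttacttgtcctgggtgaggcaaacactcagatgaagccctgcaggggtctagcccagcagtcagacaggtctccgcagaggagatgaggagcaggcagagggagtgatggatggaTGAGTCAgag
Rras2, chr7:121155117-121155317: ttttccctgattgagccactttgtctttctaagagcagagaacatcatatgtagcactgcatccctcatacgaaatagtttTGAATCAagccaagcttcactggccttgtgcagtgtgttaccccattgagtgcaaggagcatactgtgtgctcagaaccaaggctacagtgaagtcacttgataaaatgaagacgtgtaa
Stc1, chr14:69599469-69599669: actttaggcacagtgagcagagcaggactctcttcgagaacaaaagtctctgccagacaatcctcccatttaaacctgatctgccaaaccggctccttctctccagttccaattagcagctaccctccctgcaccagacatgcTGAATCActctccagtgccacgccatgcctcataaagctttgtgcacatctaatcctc
The last 3 are KD-only windows that are rich in A and T. They are the strongest with the homeobox word, an intronic window nearest to Mtpn, and the strongest at Pcdh9 and at Slitrk5, the genes with most KD-only peaks. These windows were chosen after the values were seen.
Mtpn, chr6:35469811-35470011: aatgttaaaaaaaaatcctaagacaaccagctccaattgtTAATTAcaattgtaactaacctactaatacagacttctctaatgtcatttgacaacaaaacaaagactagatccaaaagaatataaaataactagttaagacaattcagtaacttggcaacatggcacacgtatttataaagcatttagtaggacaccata
Pcdh9, chr14:94255278-94255478: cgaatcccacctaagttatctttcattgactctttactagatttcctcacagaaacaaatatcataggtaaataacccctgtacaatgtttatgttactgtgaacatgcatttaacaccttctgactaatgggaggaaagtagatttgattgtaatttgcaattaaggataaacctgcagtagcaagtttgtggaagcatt
Slitrk5, chr14:112109497-112109697: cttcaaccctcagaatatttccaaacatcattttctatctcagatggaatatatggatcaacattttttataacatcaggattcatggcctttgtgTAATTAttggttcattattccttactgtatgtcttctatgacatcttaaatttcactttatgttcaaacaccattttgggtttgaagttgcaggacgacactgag

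Nearly all strong H3K4me2 sites were present in both populations. Of the 66274 control peaks, 54644 were kept (82.5%, interval 82.2 to 82.7) and 11630 were control-only (17.5%). From the KD side, 61018 of 65852 were kept (92.7%) and 4834 were KD-only (7.34%). Ranked by fold enrichment, all 13321 control peaks and all 13337 KD peaks of the strongest 2 deciles were kept, while 61.4% of control-only and 70.8% of KD-only peaks lay in the weakest 2. Control-only peaks had a median width of 328 bp against 1043 bp for kept control peaks, and KD-only peaks 272 bp against 795 bp. Peaks of only 1 library were thus short and weak in both directions.

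Promoter peaks were kept more often than distal peaks. Of 20894 promoter control peaks 19788 were kept (94.7%), and of 45380 distal control peaks 34856 were kept (76.8%, interval 76.4 to 77.2). The shares not kept were 5.29% at promoters and 23.2% at distal sites, and on the KD side 1.71% and 10.1%. The difference went with strength. In the weakest decile of the control list 40.3% of promoter and 43.0% of distal peaks were kept, and in the fifth decile 89.2% and 93.5%. From the eighth decile up all were kept. At a given strength, distal peaks of the control were kept about as often as promoter peaks or more often, while in the KD list promoter peaks were kept more often in the second (81.9% against 75.3%), the third (89.7% against 85.4%) and the fourth decile (97.6% against 94.1%). The weakest 2 deciles held 26.8% of all distal and 4.57% of all promoter control peaks, and the part of depth in the difference between promoter and distal shares was not tested.

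**Figure D1:**
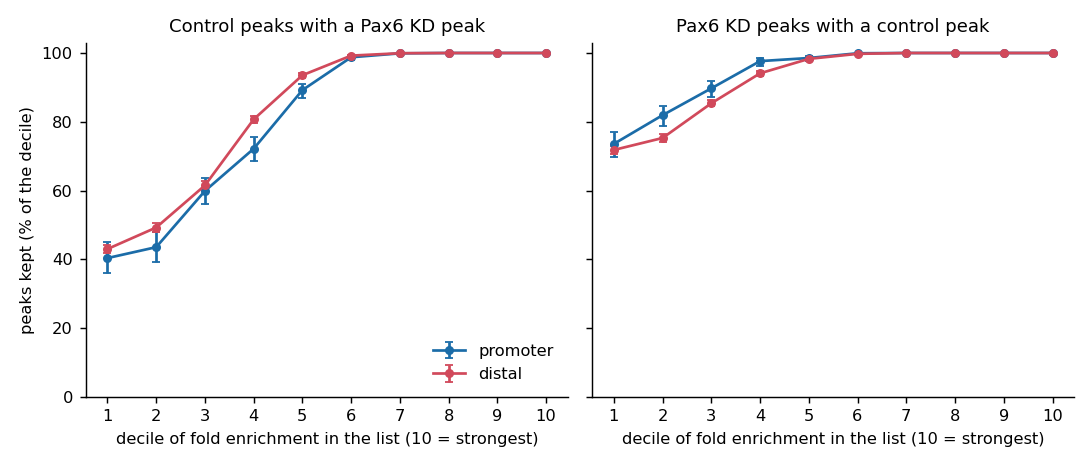
Share of H3K4me2 peaks kept in the other library (y axis, % with 95% Wilson intervals) by decile of fold enrichment (x axis), for control peaks at left and Pax6 KD peaks at right, promoter in blue and distal in red. Promoter and distal curves lie close together, start at 40.3% and 43.0% in the weakest control decile and reach 100% by the eighth.

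To ask how much change the unmatched peaks need imply, each summit was set against the lowest pileup that the other library's own peaks passed, at a local background raised alike and after removing the overall shift between libraries. Among the 40439 control peaks at least 2-fold over that limit, 98.7% were kept, with 99.4% at promoters and 98.0% at distal sites. Among the 44126 such KD peaks, 99.4% were kept. With counted fragments taken as exact, a fall of at least 2-fold is implied for 545 of 11630 control-only peaks (113 promoter, 432 distal). A rise of at least 2-fold is likewise implied for 266 of 4834 KD-only peaks (21 promoter, 245 distal). These limits hold only where a stretch over the limit was also long enough to be called, and they make no allowance for counting error. In addition, 31.7% of control-only and 36.8% of KD-only peaks lay within 1 kb of a peak of the other list.

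The strongest control-only distal peak was intronic and nearest to Arfip1, encoding an arfaptin, with 91 fragments at the summit and a fold enrichment of 9.22, and it lay 0.21 kb from a KD peak. Next came peaks near Ccdc28a and Stx16 with 76 fragments each, and near Bcar3 and Haus8 with 74 each. The peak near Haus8 stood alone, 65 kb from any KD peak. The largest implied fall among these 5 was 3.39-fold, at Arfip1, with no allowance for counting error. Among promoter peaks, Jph1, encoding a junctophilin, led with 77 fragments and lay 0.12 kb from a KD peak, followed by Hes3, Rrbp1, Dap3 and Zxdb with 75 to 68 fragments. Of these, Hes3 is a repressor related to the Notch targets.

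On the KD side the leading distal peak was intronic and nearest to Fer1l6, a ferlin gene, with 26 fragments and a fold enrichment of 9.08, 0.13 kb from a control peak. Peaks near Csf2ra and Clcn4-2 had 25 fragments each, and peaks near Tlr5 and Slc27a6 had 23 each. The Slc27a6 peak was 148.25 kb from the nearest control peak and the Csf2ra peak 23.7 kb, while the other 3 lay within 0.29 kb of one. Leading KD-only promoter peaks were near Gm20464 with 22 fragments, Mtus1 and Rab8b with 20 each, Supt6h with 19 and Kitl, encoding the Kit ligand, with 18. For this group the implied rises ran from 2.25-fold at Kitl to 2.75-fold at Gm20464, with no allowance for counting error at such low counts. The peaks near Rab8b, Supt6h and Kitl lay 0.12, 0.09 and 0.25 kb from a control peak.

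Peaks that overlapped each other and no others gave 45018 pairs, 16738 at promoters and 28280 distal. KD peaks were narrower, with median widths of 972 bp in the control and 847 bp in the KD, a median log2 change of -0.13. Peaks that split or merged are outside these pairs. In all, 7035 control peaks met 2 or more KD peaks, 1476 KD peaks met 2 or more control peaks, and 9626 kept control and 16000 kept KD peaks were unpaired. Narrowing by at least 1.5-fold was seen in 6876 pairs (15.3%) and widening in 1278 (2.84%). Distal pairs narrowed more, with a median of -0.17 and 21.4% of pairs at least 1.5-fold narrower, than promoter pairs, with -0.09 and 4.86%. In the strongest quartile of control peaks this gap shrank to 2.22% of distal and 0.840% of promoter pairs. Most large changes of width were therefore in weak peaks, where the lower KD depth also bears, and its part was not tested.

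The greatest narrowing among pairs with a peak of at least 2 kb was 6.31 kb from the TSS of Ctgf, which encodes connective tissue growth factor. That peak measured 2155 bp in the control and 516 bp in the KD, with a relative summit signal of -0.44. Next were peaks whose nearest starts were those of 1700021F07Rik (2251 to 592 bp), Gm15155 (2027 to 576 bp), Nrp2, a neuropilin receptor gene (2495 to 812 bp), and Med14, a Mediator subunit gene (2217 to 743 bp). The greatest widening was on chromosome 16, 383 kb from Speer2, from 445 to 2318 bp with relative signal 0.84, and next 40.5 kb from the TSS of Cadm2, a synaptic adhesion gene, from 1289 to 3325 bp. It was followed by pairs near Gm6741 (1133 to 2246 bp), Ebf1, a B-cell and neural factor gene (1347 to 2124 bp), and Fam168a (1666 to 2581 bp). All 10 were distal.

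Summit signal was compared as pileup over the library's background. The median pair was 1.17-fold higher in the KD, and values are given relative to that shift, on the log2 scale. Relative signal was at least 1.5-fold lower in 1363 pairs (3.03%) and at least 1.5-fold higher in 792 (1.76%). Its quartiles were -0.19 and 0.18, and the promoter and distal medians were 0.03 and -0.01. The standard deviation over pairs was 0.29, and the error from counting fragments alone had a median of 0.33. Beyond the 95% interval of counting lay 1386 of 45018 pairs (3.08%), a smaller share than that interval leaves outside by counting alone. Of these, 325 were at least 1.5-fold lower and 322 at least 1.5-fold higher. The spread over all pairs was no larger than the median counting error, while at promoters it was 0.25 against 0.24. Beyond the 95% interval lay 1.36% of pairs with under 20 KD fragments and 7.12% of those with 50 or more. A pair needs a call in both libraries, so large changes of weak peaks are left out. The pooled spread therefore cannot show whether pairs changed beyond counting. The balance of lower and higher differed with the KD fragment count, which is itself part of the ratio. Among 1.5-fold changed pairs beyond counting with under 20 KD fragments, 73 promoter pairs were lower and 2 higher. At distal sites 128 such pairs were lower and 19 higher. The counts were 0 lower and 65 higher among pairs with 50 or more, and 133 and 71 over all promoter pairs. Low KD counts favour lower ratios and high counts higher ones, so these bins cannot show how change goes with strength. By control fold enrichment, 1.5-fold changed pairs were 87 lower and 486 higher in the weakest quartile, and 78 and 30 in the strongest. That split uses the control value, which is also part of the ratio.

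**Figure D2:**
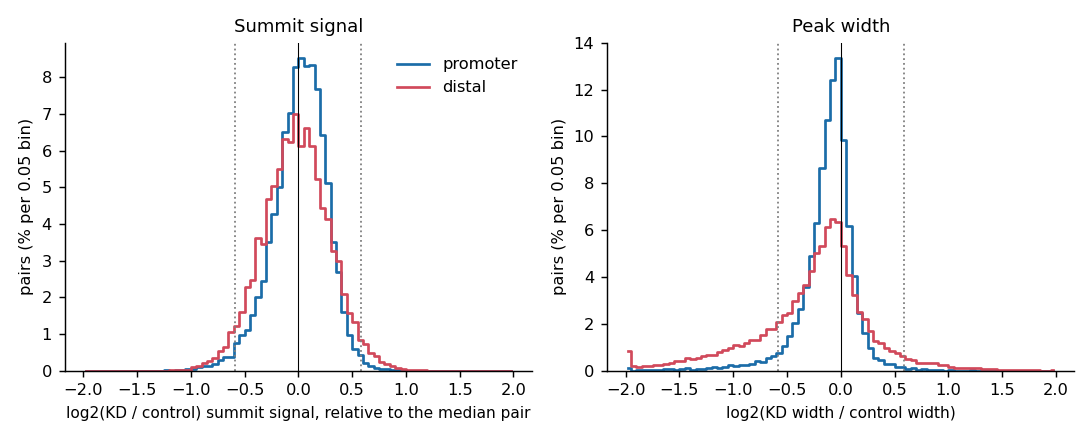
Change of peaks paired 1 to 1, as percent of pairs (y axis, 0.05 bins) against log2 KD over control of summit signal relative to the median pair (left) and of width (right), promoter in blue and distal in red, with dotted lines at 1.5-fold. Signal centres near 0 in both kinds, while width is shifted to the left and has a long left tail in distal pairs. Values beyond 2 are drawn in the outermost bins.

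The change in signal followed base composition. By GC content of the summit window, 100 bases to each side, the median relative signal of distal pairs fell from 0.16 below 35% GC to -0.04 at 45 to 50% and -0.20 at 60 to 65%. Promoter pairs went from 0.19 to 0.03 and -0.12 in the same bins. Among distal peaks below the median fold of their list, the control-only share rose from 22.6% below 35% GC to 44.1% at 55 to 60%, and the KD-only share fell from 23.8% to 7.28%. Median GC was 47.8% in control-only, 46.8% in kept control and 42.8% in KD-only distal windows. GC thus differed between the classes, and its part in the counts by gene below was not tested. When signal was taken relative to pairs of the same place and GC, 1085 pairs were 1.5-fold lower and 726 higher.

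**Figure D3:**
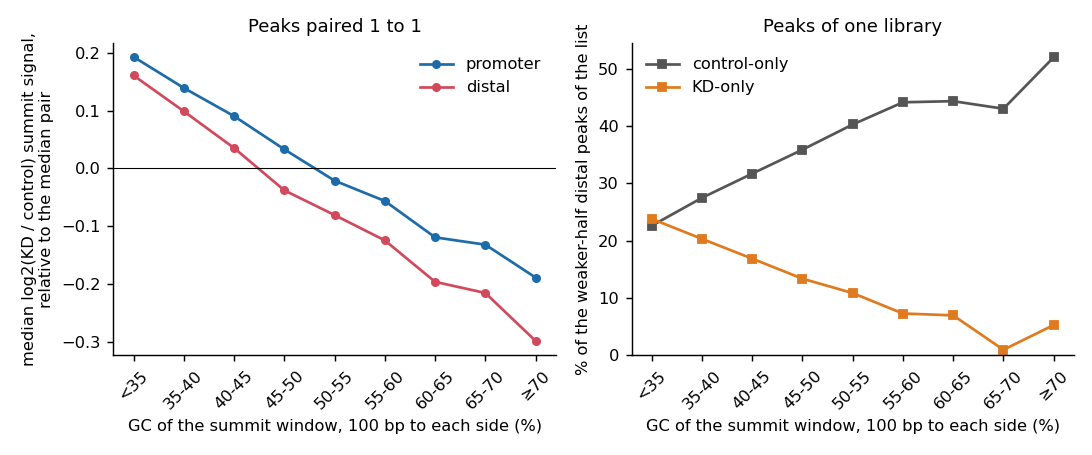
Left, median log2 KD over control summit signal relative to the median pair (y axis) by GC of the summit window in 5-point bins (x axis), promoter in blue and distal in red. Right, control-only and KD-only peaks as percent of the distal peaks below the median fold of each list. Signal falls from 0.16 to -0.20 between the lowest bin and 60 to 65% GC at distal pairs, and the shares of single-library peaks run in opposite directions.

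Words of transcription factor sites were counted in the same windows, on both strands, with windows 1 kb to either side as the local comparison. The AP-1 word TGANTCA, bound by Fos and Jun dimers, was in 13.9% of control-only (interval 13.2 to 14.5) and 15.1% of KD-only (14.1 to 16.2) distal windows, against 9.50% of kept control and 9.64% of kept KD windows and 6.10% to 6.76% beside the summits. Among peaks below the median fold it was in 11.7% of kept control and 11.3% of kept KD windows. A scrambled AP-1 word, GTAANTC, was in 5.90% of control-only and 7.22% of KD-only windows. The Runx word TGTGGT was in 18.7% of control-only, 17.4% of KD-only and 15.9% of kept control windows, with 14.5% to 15.2% beside them. AP-1 words were thus more frequent at distal peaks of only 1 library in both directions, and the intervals of the 2 classes overlapped. At promoter peaks below the median fold they were in 7.59% of kept control (interval 6.52 to 8.82) and 8.99% of control-only windows (7.43 to 10.8). For the KD list these shares were 6.05% (5.28 to 6.92) and 8.09% (5.72 to 11.3). Peaks of only 1 library were also the weaker ones below the median, and the part of strength was not tested. TAATTA, a homeodomain core, was in 3.74% of control-only and 6.68% of KD-only windows, with 5.52% and 7.19% beside them, and GGGCGG, the Sp word, in 4.20% and 1.9%. The Pax6 paired-domain core TCACGC was in 2.17% of control-only, 2.02% of KD-only and 2.24% of kept control windows. A match is only the letters, not a bound site.

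Other marks, in the same line and in newborn mouse lens, which had no part in choosing the classes, also separated them. At distal sites, islands of H3K4me1 in the control, the enhancer-linked form, covered 74.7% of kept control peaks, 63.3% of control-only and 45.3% of KD-only peaks. RNA polymerase II peaks of the control met 10.4%, 0.713% and 0.852%, and H3K4me3 peaks of the control 3.36%, 0.124% and 0.269%. Newborn lens H3K4me2 peaks overlapped 22.2% of kept, 10.1% of control-only and 6.28% of KD-only distal peaks. At promoters, RNA polymerase II met 72.1% of kept, 13% of control-only and 15.3% of KD-only peaks, and lens H3K4me2 91.2%, 46.1% and 34.9%. Pax6 itself met 0.861% of kept and 0.238% of control-only distal peaks, or 25 peaks. On the KD side it met 0.715% of kept and 0.0896% of KD-only distal peaks, or 4 peaks. Below the median fold it met 0.368% of kept control (interval 0.293 to 0.464) and 0.239% of control-only distal peaks (0.162 to 0.352), and these intervals overlapped. The KD shares there were 0.342% of kept (0.277 to 0.423) and 0.0899% of KD-only peaks (0.0350 to 0.231). KD-only peaks lay further from genes, at a median of 41.6 kb from a TSS against 31.0 kb for control-only, with 27.7% and 20.5% beyond 100 kb. Much of this went with strength. Among distal peaks below the median fold, H3K4me1 covered 70.03% of kept and 63.3% of control-only peaks, polymerase met 1.83% and 0.697%, and lens H3K4me2 11.6% and 10.0%, while among such promoter peaks H3K4me3 met 11.8% of kept and 9.63% of control-only peaks. For KD peaks below the median, control H3K4me1 covered 74.1% of kept and 45.3% of KD-only distal peaks, and lens H3K4me2 12.4% and 6.25%. KD-only peaks thus lay outside H3K4me1 islands and lens peaks more often than kept KD peaks below the median, by more than the counting intervals, although KD-only peaks were also the weaker within that group.

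Each peak was assigned to the nearest protein-coding TSS within 100 kb, which gave peaks to 16091 genes. A gene had clustered loss with at least 4 control-only and at most 1 KD-only peak, and clustered gain the reverse. Clustered loss was found in 323 of 5291 genes with at least 4 control peaks (6.10%), and clustered gain in 17 of 5275 genes with at least 4 KD peaks (0.322%). The larger number of genes with loss cannot be told apart from the greater depth of the control. At the single-library peaks of the leading genes, summit heights were 26 to 59 fragments in the control.

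The largest net losses were at Btbd11 (10 control-only of 18 control peaks) and Ywhaz, encoding 14-3-3 zeta (11 of 25, with 1 KD-only). They were followed by Fam129b (10 of 23), Zbp1, a sensor of Z-form nucleic acid (9 of 12), Adamts16, a secreted protease (10 of 20, with 1 KD-only), and Fbln2, encoding the matrix protein fibulin (9 of 18). Cebpb, a leucine-zipper factor of inflammation and fat (9 of 26), Col5a1, a fibrillar collagen (9 of 29), and Ltbp1, which holds latent TGF-beta in the matrix (9 of 29), came next. At Btbd11 the 10 peaks were 216 to 801 bp wide with folds of 3.57 to 5.75, 7 of them had a −log10 q of at least 5, and the 6 paired peaks had a median relative signal of -0.32. The other losses held less well at that q. Control-only minus KD-only peaks fell to 5 at Cebpb, 4 at Zbp1 and at Col5a1, 3 at Ywhaz, at Fam129b and at Fbln2, 2 at Ltbp1 and 1 at Adamts16. At Zbp1, 7 consecutive control-only peaks ran from 173064682 to 173073359 on chromosome 2 with no kept peak between them. The other run of 7 lay over 61.2 kb at Fbln2 on chromosome 6. Paired peaks of these genes did not all fall. Medians were -0.33 at Cebpb and -0.26 at Adamts16 but 0.30 at Fbln2 and 0.14 at Ywhaz. Among the genes given here, the paired peaks were also lower by more than 0.1 only at Btbd11, Cebpb and Adamts16.

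**Figure D4:**
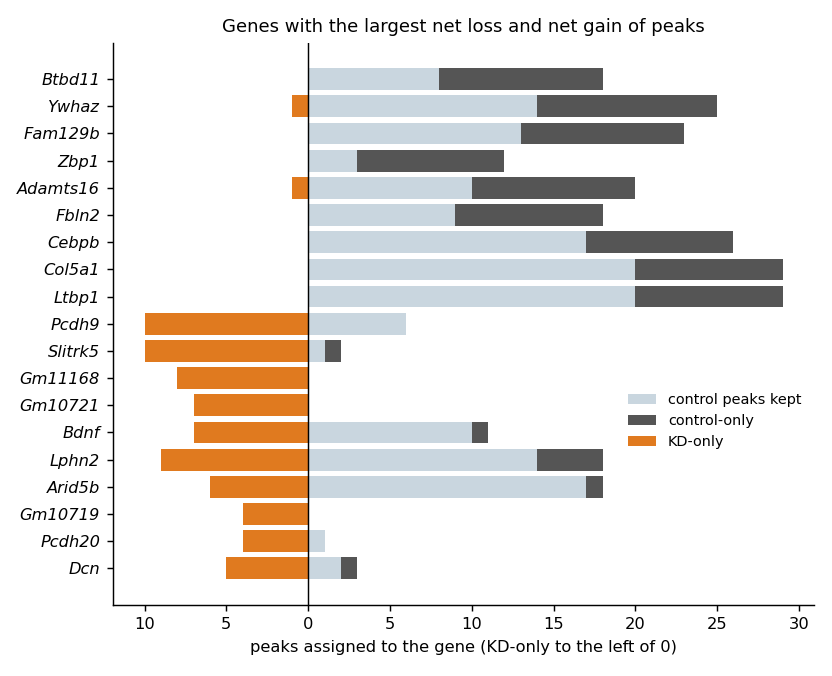
H3K4me2 peaks assigned to 9 of the genes with the largest net loss (upper) and the 10 with the largest net gain (lower), with kept control peaks in light blue and control-only in dark grey to the right of 0 and KD-only in orange to the left. Btbd11 has 10 control-only peaks and Pcdh9 and Slitrk5 10 KD-only peaks each.

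Net gain was largest at Pcdh9 and Slitrk5, followed by predicted genes at the start of chromosome 9. Pcdh9, a protocadherin gene, had 10 KD-only and 0 control-only peaks among 15 KD peaks, 9 of them inside the gene. Slitrk5, a neuronal receptor gene, had 10 KD-only of 11 KD peaks and 1 control-only of 2 control peaks, and Pcdh20, another protocadherin gene, had 4 KD-only of 5. All 3 genes lie on chromosome 14. Bdnf, encoding a neurotrophin (7 KD-only, 1 control-only), Lphn2, an adhesion receptor gene (9 and 4), Arid5b, a DNA-binding cofactor of fat and cartilage (6 and 1), and Dcn, encoding the proteoglycan decorin (5 and 1), also gained. KD-only peaks at Pcdh9 reached 10 to 15 fragments and at Slitrk5 9 to 18, with folds of 3.44 to 5.21 and 3.47 to 6.60. None of them at Pcdh9, Slitrk5 or Pcdh20 lay in a control H3K4me1 island, whereas 4 of 7 at Bdnf did. At a −log10 q of at least 5, KD-only peaks fell to 5 at Pcdh9, 4 at Slitrk5, 4 at Lphn2 and 2 at Pcdh20. They were 6 at Bdnf, 5 at Arid5b and 5 at Dcn, so at that q the net gain was larger at Bdnf than at Pcdh9 or Slitrk5. The median GC of KD-only peaks was 34.3% at Pcdh9 and 35.1% at Slitrk5.

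The gains formed the longest runs. A pair of runs of 9 consecutive KD-only peaks lay on chromosome 14, one of 451 kb between 90321705 and 90772361 and one from 112098451 to 115437048 beside Slitrk5. Runs of 6 lay at Pcdh9, Slitrk5 and Lrrtm1, a synaptic leucine-rich repeat gene on chromosome 6. Between 85 and 116 Mb of chromosome 14, a stretch chosen after these values were seen, 74 of 312 KD peaks were KD-only (23.7%) against 8.13% on the rest of the chromosome. The control-only shares were 17.0% and 18.2%. The 189 pairs there had a median relative signal of 0.10, and 0.07 relative to pairs of like GC, with 121 above 0. Of the 74 KD-only peaks, 3 lay in a KD H3K4me1 island and their median GC was 35.6%. A similar stretch at 65 to 70 Mb of chromosome 16, around Cadm2, held 25 KD-only of 74 KD peaks (33.8% against 8.29% elsewhere on the chromosome), a relative signal of 0.25 over 44 pairs and a median width change of 0.24 on the log2 scale, against -0.11 on the rest of the chromosome. Relative to pairs of like GC the signal there was 0.13.

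A run of 40 KD-only peaks stood apart, in the first assembled 37.4 kb of chromosome 9. Its first peak was nearest to the predicted gene Gm10722. Other predicted genes there were Gm11168, Gm10721 and Gm10719, with 8, 7 and 4 KD-only peaks. Peaks there rose over a high local background: those at Gm11168 had 171 to 363 fragments and folds of only 1.35 to 1.97. In all, 44 of the 51 KD peaks of the first 4 Mb of chromosome 9 were KD-only and 0 of 7 control peaks were control-only. Without that stretch clustered gain counted 14 genes.

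Chromosome 8 was lower as a whole in the KD. Its 2307 pairs had a median relative signal of -0.09, with 1451 below 0, while the other chromosomes ranged from -0.03 on chromosome 5 to 0.05 on chromosome 3. From 115 Mb to its end, a bound set after the values were seen, the median was -0.17 (358 of 495 pairs below 0), -0.12 relative to pairs of like GC. Between 126 and 126.25 Mb, at Gas8 and Rhou, it was -0.44 over 47 pairs, and -0.23 relative to pairs of like GC. H3K4me3 summits of the chromosome, from a different pair of libraries, had a median of -0.07 over 642 pairs. Input reads per kb in 429 paired H3K4me1 islands had a median of -0.19, so input reads were lower there too. The part of DNA content in the H3K4me2 values of chromosome 8 was not tested. Of the 323 genes with clustered loss, 305 were on other chromosomes.

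**Figure D5:**
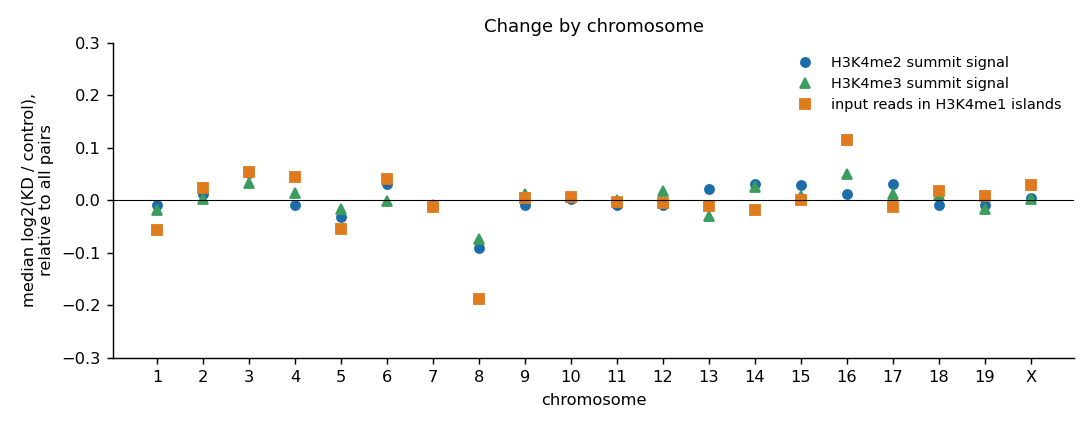
Median log2 KD over control by chromosome (x axis), relative to all pairs (y axis), for H3K4me2 summit signal (blue circles), H3K4me3 summit signal (green triangles) and input reads in paired H3K4me1 islands (orange squares). Chromosome 8 is the lowest in all 3, at -0.09, -0.07 and -0.19.

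Gene groups were then read against all genes, where 16.6% of assigned control peaks were control-only and 6.34% of assigned KD peaks were KD-only. Promoter peaks were rarely control-only, so these shares move with the promoter content of a list, and distal peaks, where all genes gave 23.2% and 9.24%, are given too. For every list the interval of its distal control-only share included 23.2%, so none stood apart in loss beyond counting error. For the distal KD-only share, the interval lay below 9.24% at collagen and laminin genes. It lay above 9.24% at neural and retinal targets of Pax6 and at ribosomal protein genes (23.5%, interval 9.56 to 47.3). Of 229 control peaks at 22 collagen and laminin genes, 55 were control-only (24.0%), and 7 of 224 KD peaks were KD-only (3.12%). At distal peaks alone the shares were 27.5% (interval 21.8 to 34.1) and 3.19% (1.47 to 6.79). Clustered loss was met by 7 of the 17 members with at least 4 control peaks, beside 6.10% over all genes, and all but Col5a1 had exactly the 4 control-only peaks that it asks for. Besides Col5a1 these included Col4a1 (4 of 7), Col4a3 (4 of 9), Col1a2 (4 of 17), Col5a2 (4 of 17), Col3a1 (4 of 14, with 1 KD-only) and Col12a1 (4 of 12, with 1 KD-only). Clustered loss asks for a fixed number of peaks, so genes with more control peaks meet it more readily. The 22 genes held 229 control peaks, while all 16091 genes with a peak held 57005, and this was not adjusted for. The distal pairs of the 22 genes had a median relative signal of -0.08, beside -0.03 for all genes. All 20 collagen or laminin genes with a promoter peak had one in both libraries.

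Among 28 Wnt genes, 46 of 185 control peaks were control-only, and at distal peaks 28.6% (interval 21.7 to 36.5). There were 6 of 11 at the ligand gene Wnt11, 4 of 9 at Wnt5b and 6 of 24 at Tcf7l2, a nuclear effector. Wnt5a went the other way, with 3 KD-only of 6 KD peaks and no control-only peak. Promoter peaks were absent from the KD list at Wnt3 and Wnt5b. In the TGF-beta and BMP pathway the distal share was 21.6%, with 8 of 30 peaks control-only at the effector Smad3 and 4 of 21 at Tgfb2, encoding a ligand. Notch genes stood at 23.4%, with Rbpj, the DNA-binding effector, at 5 of 21 and its target Hes1 at 4 of 13. FGF receptors and feedback genes were at 23.3%, with Fgfr2 at 4 of 12 and Spred2, an inhibitor, with 3 KD-only and no control-only peak. AP-1 genes were at 25.5%, with Jun at 4 of 15 and Fos at 3 of 14, and 1 of 77 KD peaks was KD-only. Every gene of these 4 pathways with a promoter peak had one in both libraries, and their distal shares were within the counting error of that of all genes.

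Epithelial genes had 15 of 50 distal control peaks control-only (30%, interval 19.1 to 43.8), with Cdh3, encoding P-cadherin, at 4 of 9 of its peaks and Cldn4, a tight-junction claudin, at 3 of 6. Mesenchymal genes had 18 of 84 (21.4%), with the intermediate filament gene Vim at 5 of 7 of its peaks. KD-only distal shares were 12.2% and 11.8%. The distal pairs of the epithelial genes had a median relative signal of -0.19 over 27 pairs, and -0.15 relative to pairs of like GC. Those of the mesenchymal genes had -0.01 over 57, and those of all genes -0.03, or -0.002 relative to pairs of like GC. Of all 31 epithelial pairs, promoter pairs included, 1 was at least 1.5-fold lower and 1 at least 1.5-fold higher. No interval was set on these medians. The 8 epithelial and 15 mesenchymal genes with a promoter peak each had one in both libraries.

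Lens transcription factor genes had 16 of 90 distal control peaks control-only (17.8%, interval 11.2 to 26.9) and 4 of 90 KD-only, and all 18 with a promoter peak had it in both libraries. Within them, Gata3 had 5 control-only of 19 peaks, Tshz2 had 3 of 14, and Maf, the fibre-cell factor, had 2 of 15 with a median relative signal of -0.23 over 10 pairs. Crystallin genes had 4 of 25 distal peaks control-only, of which 3 were at Cryba4. At Cryaa, encoding the alpha-A crystallin, the promoter peak was 4379 bp in the control and 3707 bp in the KD, and its summit was 0.52 higher in the KD on the relative log2 scale. Lens fibre cytoskeleton and membrane genes had 8 of 56. The 20 genes for H3K4 methylases and demethylases had 2 control-only of 46 control peaks in all, of which 10 were distal, and all 20 promoters were marked in both libraries. Ribosomal protein genes had 8 of 19 distal peaks control-only, with 4 control-only of all 12 peaks at Rpl3, and all 23 promoters in both. Neural and retinal targets of Pax6 had 15 of 63 control-only and 11 of 63 KD-only (17.5%, interval 10.0 to 28.6), with 4 KD-only peaks at Nfib. Hox genes had 5 of 25 and 1 of 23. Cell cycle inhibitors with the p53 and Rb families had 12 of 55 and 3 of 55. The 10 genes that the study discusses for Pax6 binding had 11 of 57 and 7 of 58, and the study chose that list on these cells. Peaks of 1 gene share their neighbourhood, so these intervals are too narrow.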

How the data were processed

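The authors aligned ChIP-seq reads to mm9 and called H3K4me2, H3K4me3, Pax6 and RNA polymerase II peaks with MACS2 and H3K4me1 islands with SICER. The fold enrichment ratio and the −log10 p and q of each peak, and the ChIP and input read count of each island with its p-value, were used as deposited by the authors. Columns of the deposited peak lists give no replicate. The names inside the control list mention both replicates and those of the KD list do not, so the control may be pooled. Overlap, pairing, gene assignment (22219 symbols, GENCODE vM1) and word counts were made in Python 3.11.15 with pandas and pysam, and tested on simulated lists. Summit pileups were solved from fold = (pileup + 1)/(background + 1) and the Poisson p, for 100% of control and 99.9985% of KD peaks. Pairs are compared at 1.5-fold. Named genes are the 10 with the largest net loss and gain, the 5 leading peaks and 5 leading width changes per class, and list members with at least 2 unmatched peaks, of which examples are given, and 1 gene with a net loss is not reported here. Members and gene lists were chosen with earlier results of these data known. Alternatives were another overlap, stricter q, merged peaks and other distances. RNA-seq was not used here. Depth per library is in relative terms only, and intervals cover counting error only.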

Additional observations from a re-analysis of the deposited data

How the results depend on the processing

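No paired analysis was possible because each condition had 1 sample with 1 peak list. Shares of control, KD, promoter control and distal control peaks kept were 67.7%, 68.1%, 88.0% and 58.3% at a reciprocal overlap of 50%, and 88.0%, 95.4%, 97.6% and 83.6% when peaks within 1 kb counted. They were 88.9%, 95.8%, 96.5% and 84.7% for counted peaks with −log10 q of at least 5. With q of at least 5 in both lists control, promoter and distal shares were 83.6%, 95.02% and 77.4%, among the 30000 peaks of highest fold 87.35%, 95.6% and 76.1%, and with peaks closer than 500 bp merged 83.9%, 96.0% and 79.3%. Promoters of 1 kb and 5 kb gave 96.2% and 91.3%. Added after seeing the data, peaks 2-fold over the other library's limit gave 98.7%, 99.4%, 99.4% and 98.0%. Promoter peaks were kept more often than distal ones under each of these settings. Median log2 width change was -0.12 at the stricter q and -0.11 with merged peaks. At 2-fold, 3048 pairs narrowed and 373 widened, and at the stricter q 689 pairs widened, 906 were lower and 501 higher in signal. Clustered loss, 6.10% of genes with at least 4 control peaks, was 4.36% within 50 kb, 2.04% at the stricter q, 2.89% when peaks within 1 kb counted and 9.78% of genes with at least 3 peaks when 3 were asked for. Clustered gain, 0.322%, was 0.196% at the stricter q and 1.01% at 3 peaks. At the 20 named genes, 42 of 60 net counts stayed within 1.5 times, 18 moved and 0 reversed, and Pcdh20 had a net of 0 within 50 kb. Fewer peaks enter at the stricter settings. Otherwise the cause was not tested.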

Other observations

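The pairs with the largest rise or fall relative to counting error were chosen after the values were seen. Rises lay near Scaf8 on chromosome 17, where a peak had 352 fragments in the control and 289 in the KD, against medians of 81 and 26 over all pairs (relative signal 1.29), and near Sfi1 on chromosome 11 (1.13, 1.01 and 0.68 for 3 peaks). Others lay near Gm15319 on chromosome 8 (0.91 and 0.89), 4932411N23Rik on chromosome X (0.90), Zfp868 (0.83) and Vmn1r238 (0.82). The Scaf8, Sfi1 and Vmn1r238 peaks start within the first 4 Mb of their chromosomes, as does the stretch of chromosome 9 with 40 KD-only peaks in a row. These rises are taken over each library's genome-wide background, and the part of the local background in them was not tested. The 10 pairs with the largest fall lay at most 3.07 counting errors below 0, while the 10 above lay at least 5.11 above it. The falls were picked as extremes of 45018 pairs, and whether they exceed counting error over that many pairs was not tested. Of the 10 that fell, 7 were at promoters, among them Arhgef10l (-1.22), Cbll1 (-1.08), Rfwd3 (-1.06), Pitpnm2 (-0.86), Pdgfa (-0.91) and Ccpg1 (-0.86). Promoter pairs were 16738 of all 45018 pairs, and the 10 that rose were all distal. The ranking divides by counting error, which had a median of 0.24 at promoter and 0.38 at distal pairs. It therefore does not show a fall particular to promoters. A distal peak 21770 bp from a start of Pitpnm2 had a relative signal of -1.13, with 111 fragments in the control and 17 in the shallower KD library.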
